A study of Camellia sinensis with 9 samples.

Results

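Stranded intergenic transcripts that stand alone at their locus of the tea plant, Camellia sinensis, were described in roots, flowers and leaves. They are the rows of the authors' FPKM table that carry the class code u (a transcript assembled between annotated genes), a plus or minus strand, and a locus identifier found in no other row. The rule left 11070 of the 109879 assembled transcripts (10.1%), or 30.3% of the 36531 intergenic ones. A further 11490 stranded intergenic transcripts share a locus with another transcript, and 13971 intergenic transcripts without a strand stand alone. The 9 libraries are 3 from root (numbered 13, 23 and 33 in their titles), 3 from flower (1, 2 and 45) and 3 from leaf (1, 41 and 1 column whose number matches no leaf title, called the unnumbered leaf library). All come from untreated plants, and the sources used here give neither their cultivar nor their age. Each library was made from total RNA after removal of ribosomal RNA. The labels do not say whether the libraries of a tissue come from separate plants, so the p-values reflect spread among libraries that may be technical repeats.

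Plant genomes are transcribed well beyond their annotated genes. The products include long non-coding RNAs, which are often spliced like messenger RNA but hold no long reading frame. In Arabidopsis thaliana, some of them act on the chromatin of a nearby gene, as COOLAIR does at the flowering repressor FLC, and some serve as decoys for a microRNA, as IPS1 does in phosphate starvation. Other intergenic transcripts are protein-coding genes, exons or transposon copies that the annotation missed, and the table does not separate these kinds. It names no scaffold, gives no sequence and pairs no identifier with a gene name, and 0 of its identifiers occurred in the RefSeq gene table for the species, so transcripts are given by identifier with their start and end along an unnamed scaffold. For the same reason the tissue labels were not checked against marker genes.

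The transcripts were split nearly evenly between the strands, with 5548 on the plus and 5522 on the minus strand. Their span, from start to end with any introns, had a median of 1544 nt and quartiles of 781 and 3184 nt. Reference transcripts that are alone at their locus spanned 1473 nt at the median, and unstranded intergenic transcripts 464 nt. Among those tested (by the filter given below) the medians were 1632 nt for the stranded intergenic transcripts, 2304.5 nt for the reference transcripts and 497 nt for the unstranded ones. The shortest spanned 200 nt, 790 (7.14%) spanned under 400 nt, and 305 spanned 20000 nt or more.

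A transcript's own length is not listed, but it could be read from the values. FPKM divides fragments by length and library size, so the low values of a transcript lie on steps of 1 fragment. With the span taken as the length, 100% of the values worth 1.5 to 10 fragments were whole to within 0.05 in every library for unstranded intergenic transcripts of 600 to 3000 nt, where evenly spread values would give 10%. For the stranded transcripts the span gave whole numbers in 32.0% to 35.3% of such values. A search for the length that turned the low values of at least 4 libraries into whole fragments found one of 350 nt or more, and not above the span, for 3434 of the 9053 stranded transcripts with a value above 0 in at least 4 libraries. Only values under 15 fragments entered the search, and a length among the shortest that fitted was taken. A length was found for 1521 of the 6050 tested transcripts and 1913 of the 5020 others, so the measured set leans to low levels. The same search gave a length for 4711 of 9631 such unstranded transcripts, and 98.3% of these lengths were within 1% of the span. Because the worth of a fragment was itself fitted on unstranded transcripts of 600 to 3000 nt, those outside this range were also taken alone, where 98.1% of 2230 lengths were within 1% of the span. These lengths were sought after the values had been seen.

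Most of the measured lengths were shorter than the span. In 2643 of the 3434 transcripts (77.0%) part of the span was missing from the transcript. Their median length was 671 nt (quartiles 492 and 987 nt) within a median span of 1813 nt, and the missing stretch had a median of 939 nt. In the other 791 transcripts (23%) the length was within 1% of the span, so a strand was given to transcripts with no missing stretch as well. Such transcripts made up 43.6% of the 1141 measured ones spanning under 1000 nt, 15.7% of 1845 spanning 1000 to under 5000 nt, 1.36% of 367 spanning 5000 to under 20000 nt and 0 of 81 spanning more. Among the measured transcripts length grew little with span: the median was 541 nt in the shortest of these classes, 875 nt and 826 nt in the middle ones and 712 nt in transcripts spanning 20000 nt or more. Long transcripts with many fragments got no length, so whether this holds for the unmeasured ones was not tested. The longest tested span, 189020 nt at MSTRG.43798 (plus strand, 228116 to 417135), belonged to a transcript of 1293 nt.

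**Figure D1:**
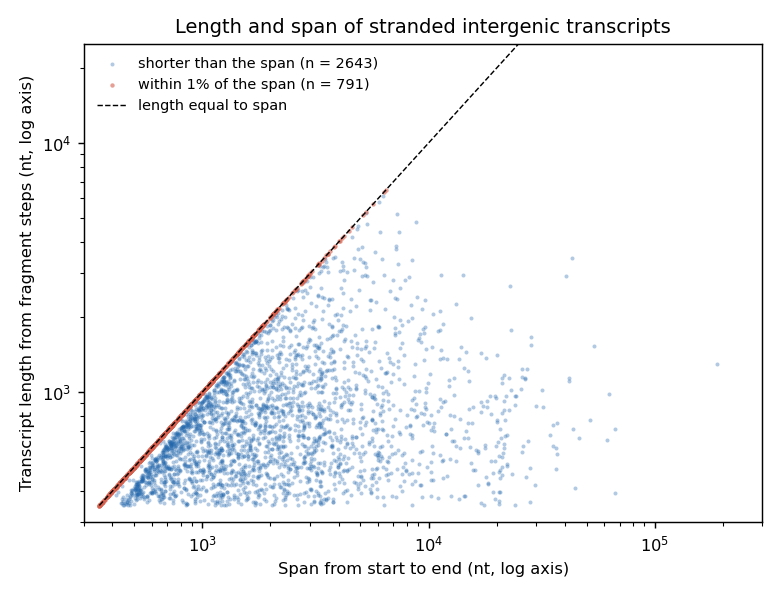
Transcript length read from fragment steps against span for 3434 stranded intergenic transcripts, both in nt on log axes. The 791 red points lie within 1% of the dashed line of equal length and span, and the 2643 blue points lie below it and do not follow it up at long spans.

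Over all 11070 transcripts the mean FPKM of the 9 libraries had a median of 0.932. The median was 0.200 for reference transcripts alone at their locus, 0.664 for unstranded intergenic ones and 1.32 for all loci. An intergenic transcript is listed because it was assembled, and a reference transcript because it was annotated. These medians therefore do not show which class is expressed more. Among those tested (by the filter given below) the order was reversed, with 2.26 FPKM for the stranded intergenic and 8.31 FPKM for the reference transcripts. Between 4138 and 4228 of the stranded intergenic transcripts reached 1 FPKM in the root libraries, 4180 to 4257 in the flower libraries and 4624 to 4822 in the leaf libraries. At the high end the order was different: 100 FPKM was reached by 153 to 206 transcripts in flower, 105 to 130 in root and 55 to 74 in leaf. The leaf libraries had the lowest summed FPKM over all loci (623826 to 766516, against 865021 to 1250930 in the others) and the most fragments for each FPKM. At a length of 1000 nt, 1 FPKM stood for 23 to 26 fragments in leaf, 14.0 to 17.8 in root and 14.1 to 17.9 in flower. The part of this difference in the counts of detected transcripts was not tested. Where no fragment was seen at that length, the level may still be as high as 0.116 to 0.215 FPKM, depending on the library (3 fragments, a limit that covers counting error only).

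In bulk tissue, fewer cells of a type and less RNA per cell cannot be told apart. Detection was patchy. An FPKM of 1 was reached in no library by 1280 transcripts (11.6%), in a single library by 1977 (17.9%) and in all 9 by 1239 (11.2%). All 3 libraries of one tissue and no library of another reached it for 371 transcripts in root, 353 in flower and 254 in leaf. The root-only transcripts had a median of 3.77 FPKM in root, the flower-only ones 5.80 in flower and the leaf-only ones 2.49 in leaf. Shared detection in all libraries of a pair of tissues and none of the remaining one was rarer, with 137 transcripts for flower and leaf, 117 for root and leaf, and 72 for root and flower.

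Tests were kept to the 6050 transcripts (54.7%) that reached 1 FPKM in 3 or more libraries. The other 5020 were not tested. The filter favours transcripts of one tissue: 1654 passed with exactly 3 libraries, and in 978 of these (59.1%) the 3 libraries were those of one tissue, so they had to differ between tissues. The transcript just inside the filter had a highest-but-2 value of 1.00012 FPKM and the one just outside 0.999989 FPKM. Of the reference transcripts alone at their locus 36.5% passed, and of the unstranded intergenic ones 41.8%. These shares also carry the way each class came to be listed, by annotation or by assembly. Among those that passed, the median mean was 2.26 FPKM for the stranded intergenic transcripts, 8.31 FPKM for the reference transcripts and 1.64 FPKM for the unstranded ones.

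**Figure D2:**
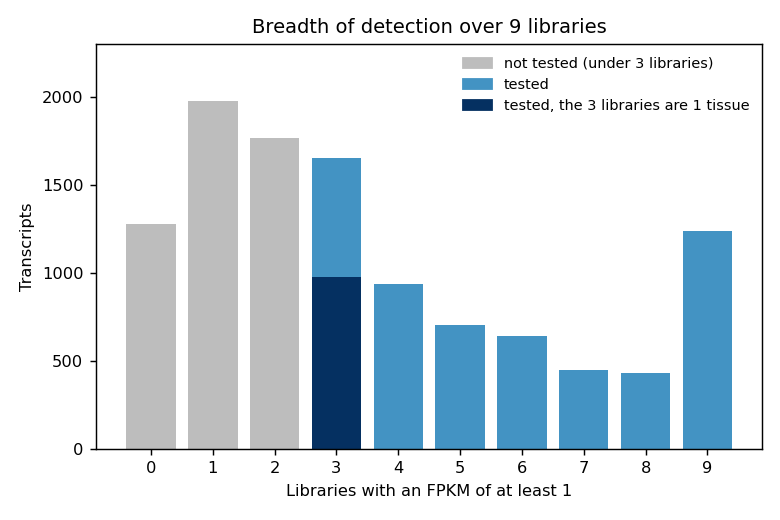
Number of stranded intergenic transcripts (vertical axis) by the number of libraries in which they reached 1 FPKM (horizontal axis). Grey bars were not tested, blue bars were, and the dark part of the bar at 3 libraries marks the 978 of 1654 transcripts whose 3 libraries are those of one tissue.

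The comparison of root with leaf sets the below-ground organ against the photosynthetic one. A transcript was called when its limma p, adjusted by Benjamini-Hochberg over all 36342 tested loci, was under 0.05 and the tissue means of log2(FPKM + 1) differed by 1 or more. This scale understates the change of low transcripts. Of the 6050 tested, 1061 (17.5%) were higher in root and 815 (13.5%) were higher in leaf, where 19.8% and 15.5% of all loci were. By at least 8-fold on that scale, 247 were higher in root (4.08%, beside 4.57% of all loci) and 165 in leaf (2.73%, beside 3.58%). Scaling the libraries to equal sums reversed this balance, with 890 (14.7%) higher in root and 1172 (19.4%) higher in leaf. Of all loci 15.3% and 21.7% were called then, and their median shifted from 0.00 to -0.27. A pseudocount of 5 left 558 (9.22%) and 320 (5.29%) calls, beside 12.1% and 8.30% of all loci.

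The largest differences named here and below were drawn from called transcripts whose compared tissues did not overlap. The largest excess in root was at MSTRG.47335 (minus strand, 37255 to 38293), a transcript of 1039 nt that fills its span. Its FPKM was 3819 in root 13, 793 in root 23 and 4357 in root 33. The leaf libraries held 0.294 in leaf 1, 0.580 in the unnumbered library and 0.532 in leaf 41, or 8, 14 and 13 fragments. In flower it stood at 2.64, 0.737 and 0.426 FPKM in libraries 1, 2 and 45. Every root library was far above all others, and flower and leaf overlapped. The difference from leaf was 10.66 ± 0.62 (SE) on the log2(FPKM + 1) scale, with a limma adjusted p of 5.31e-06. Outside root only flower 1 reached 1 FPKM. MSTRG.47335 therefore needed its root libraries to pass the filter, so its p adds no support.

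MSTRG.7345 (plus strand, 822651 to 823760; 1110 nt, again its whole span) followed. It stood at 1197, 1366 and 1776 FPKM in root 13, 23 and 33. In leaf 1, the unnumbered leaf library and leaf 41 it stood at 0.237, 0.191 and 0.793 FPKM, and in flower 1, 2 and 45 at 0.623, 0.680 and 0.245 FPKM. None of these 6 values rests on more than 21 fragments. Its difference from leaf was 10.01 ± 0.26 (adjusted p = 1.50e-07, limma), and it was root-only by the detection rule above, with the highest mean of that set (1446 FPKM). MSTRG.7345 therefore passed the filter through its root libraries alone and had to differ, so its p adds no support.

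Leaf exceeded root most at MSTRG.42277 (minus strand, 37457 to 38789). It was listed at 525, 963 and 972 FPKM in leaf 1, the unnumbered leaf library and leaf 41, and at 0.873, 0.303 and 2.47 FPKM in root 13, 23 and 33. Flower lay between, at 112, 74.9 and 112 FPKM in libraries 1, 2 and 45, and no tissue overlapped another. The difference of root from leaf was -8.60 ± 0.40 (adjusted p = 1.90e-06, limma). MSTRG.48811 (plus strand, 438 to 1125) had the same order, with 582, 1144 and 1241 FPKM in leaf, 143, 197 and 133 FPKM in flower and 2.88, 1.39 and 9.41 FPKM in root, in the same order of libraries. Its difference was -7.68 ± 0.52 (adjusted p = 1.12e-05, limma).

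Flower was compared with leaf next. In flower, 991 transcripts (16.4%) were higher and 897 (14.8%) were lower, beside 20.3% and 17.3% of all loci. With the authors' scaling, 341 were higher by at least 8-fold (5.64%, beside 5.95% of all loci) and 101 lower (1.67%, beside 2.38%). Equal sums turned the balance of calls to 811 (13.4%) higher and 1327 (21.9%) lower, beside 15.1% and 25.3% of all loci. The median difference over all loci was then -0.36 in place of -0.02. With a pseudocount of 5 there were 629 (10.4%) and 317 (5.24%) calls, beside 14.0% and 8.53% of all loci.

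MSTRG.24822 (plus strand, 139575 to 140714) led the excess in flower. It stood at 11136 FPKM in flower 1, 3921 in flower 2 and 7142 in flower 45, at 6.77, 4.81 and 2.57 in leaf 1, the unnumbered leaf library and leaf 41, and at 20.3, 24.9 and 61.8 in root 13, 23 and 33. The 3 tissues did not overlap. Its difference from leaf was 10.28 ± 0.52 (adjusted p = 3.02e-06, limma). MSTRG.14253 (plus strand, 484234 to 484969) had the same order of tissues at a lower level, with 2323, 693 and 1253 FPKM in flower, 9.01, 28.5 and 22.3 in root and 1.84, 0.781 and 1.61 in leaf. It differed from leaf by 9.06 ± 0.51 (adjusted p = 4.89e-06, limma).

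The largest deficits in flower against leaf belonged to transcripts with consecutive identifiers on the plus strand, MSTRG.11784 (345483 to 346409) and MSTRG.11785 (373383 to 375711). MSTRG.11785 stood at 240, 424 and 746 FPKM in leaf 1, the unnumbered leaf library and leaf 41, at 4.81, 23.9 and 49.7 in root 13, 23 and 33, and at 0.365, 0.277 and 0.836 in flower 1, 2 and 45. MSTRG.11784 stood at 86.5, 170 and 160 FPKM in leaf, at 0.217, 0.277 and 0.585 in root, and was listed at 0 in all flower libraries. Both had their lowest leaf value in leaf 1, and root was above flower in every library of both. MSTRG.11785 and MSTRG.11784 differed from leaf by -8.17 ± 0.72 (adjusted p = 3.88e-05, limma) and -7.07 ± 0.31 (adjusted p = 1.74e-06, limma). With flower at 0, the size of the latter depends on the pseudocount. MSTRG.11784 passed the filter through its leaf libraries alone and had to differ, so its p adds no support.

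Flower and root, the remaining pair, gave the most calls. In flower, 1149 transcripts (19.0%) were higher and 1326 (21.9%) lower than in root, beside 21.8% and 22.5% of all loci. By at least 8-fold, 384 were higher (6.35%, beside 6.51% of all loci) and 260 lower (4.30%, beside 4.71%). The balance turned to 1310 higher and 1272 lower without flower 2, whose Pearson's r over the tested transcripts was 0.81 and 0.82 with the other flower libraries, where those had 0.94 with each other. Without flower 2 these calls were 21.7% and 21.0% of the tested transcripts, beside 23.2% and 22.3% of all loci. The balance also turned with a filter of FPKM 5, to 672 (30.8%) and 656 (30.1%), beside 28.0% and 26.9% of all loci. The pseudocount of 5 left 671 higher (11.1%, beside 14.4% of all loci) and 596 lower (9.85%, beside 12.8%). The largest deficits were those of the root transcripts described above, at -10.15 ± 0.62 for MSTRG.47335 (adjusted p = 3.99e-06, limma) and -9.89 ± 0.26 for MSTRG.7345 (adjusted p = 2.10e-07, limma). The latter passed the filter through root alone and the former needed its root libraries to pass, so here too these p add no support.

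The largest excesses over root had nearly the same profile as each other. MSTRG.29193 (minus strand, 134237 to 136361) stood at 1892, 2643 and 751 FPKM in flower 1, 2 and 45, and MSTRG.23592 (plus strand, 256 to 940) at 2679, 2037 and 812. In leaf 1, the unnumbered leaf library and leaf 41 they stood at 22.3, 22.3 and 5.18 FPKM and at 20.1, 25.5 and 6.04 FPKM. In root 13, 23 and 33, MSTRG.29193 stood at 0.973, 0.287 and 1.45 FPKM and MSTRG.23592 at 0.645, 0.823 and 1.98 FPKM. In both, flower 45 and leaf 41 were the lowest libraries of their tissue. Their differences from root were 9.72 ± 0.61 (adjusted p = 4.61e-06, limma) and 9.63 ± 0.58 (adjusted p = 3.68e-06, limma). Whether reads shared by similar sequences contribute to both was not tested.

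**Figure D3:**
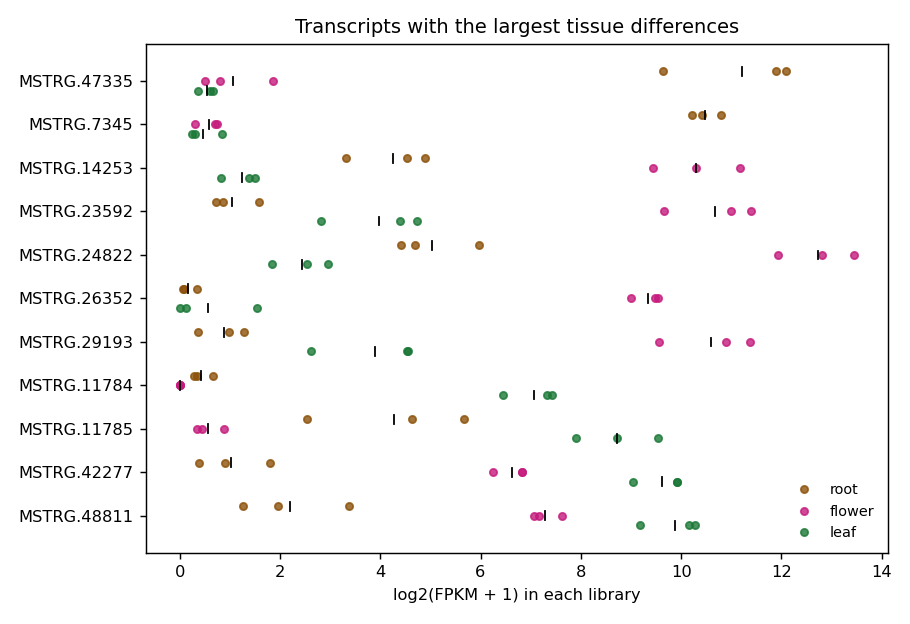
Level of the transcripts with the largest differences in each comparison or the largest margin in each tissue, as log2(FPKM + 1) on the horizontal axis. Each point is a library, coloured by tissue, and the black tick is the mean of a tissue's 3 libraries. The enriched tissue stands clear of the other libraries in every row. For the largest differences, a gap between the tissues compared was a condition of the choice.

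Transcripts higher in one tissue than in both others were called enriched there. The 3 comparisons share libraries, so these sets are not independent of the calls above. Root had 829 enriched transcripts (13.7%), flower 766 (12.7%) and leaf 451 (7.45%), where 13.5%, 14.2% and 8.21% of all tested loci were enriched. In their own tissue the flower-enriched transcripts had a median of 15.9 FPKM (quartiles 5.28 and 50.6), the root-enriched ones 7.73 (3.74 and 25) and the leaf-enriched ones 5.98 (3.34 and 18.0). A mean of at least 100 FPKM in the own tissue was reached by 122 in flower, 69 in root and 21 in leaf. No library of the other tissues reached 1 FPKM at 349 of the root-enriched, 330 of the flower-enriched and 186 of the leaf-enriched transcripts. These passed the filter only through the tissue in which they were called, so the filter itself favoured their calls. Equal sums gave 730 enriched transcripts for root, 653 for flower and 664 for leaf, while quantile normalization kept leaf (460) below flower (723). The place of leaf below flower thus depends on which scaling is used. Without leaf 41 the counts were 976, 745 and 581, with leaf still below flower. The place of root above flower turned with a pseudocount of 5 (425 and 506) and with a filter of FPKM 5 (425 and 470).

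The margin over the next tissue was largest in MSTRG.47335 for root, MSTRG.26352 for flower and MSTRG.11784 for leaf. MSTRG.26352 (minus strand, 70466 to 72294) is a transcript of 1017 nt within a span of 1829 nt. It stood at 714, 740 and 508 FPKM in flower 1, 2 and 45. In root 13, 23 and 33 it held 1, 4 and 1 fragments (0.0549, 0.280 and 0.0591 FPKM). In leaf 1 it was at 0, which allows up to 0.113 FPKM, in the unnumbered leaf library at 2 fragments (0.0851 FPKM) and in leaf 41 at 1.93 FPKM. Leaf 41 was the highest library outside flower. The differences were 9.16 ± 0.40 from root (adjusted p = 8.53e-07, limma) and 8.78 ± 0.40 from leaf (adjusted p = 2.12e-06, limma). Outside flower only leaf 41 reached 1 FPKM, so MSTRG.26352 needed its flower libraries to pass the filter. It was also chosen for its margin, so these p add no support.

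Fewer transcripts were lower in one tissue than in both others. There were 256 for root (4.23%), 272 for flower (4.50%) and 181 for leaf (2.99%), beside 5.84%, 6.56% and 5.03% of all loci. MSTRG.27025 (plus strand, 251504 to 381595), which has the next longest span among the tested, was one of those low in flower, at 0.718, 1.71 and 1.13 FPKM in flower 1, 2 and 45. It stood at 28.5, 32.1 and 21.2 FPKM in root 13, 23 and 33. In leaf it stood at 8.13 and 13.6 FPKM in leaf 1 and the unnumbered library and at 66.1 in leaf 41. Its flower libraries lay below all others, while root fell inside the range of leaf. The difference of flower was -3.70 ± 0.63 from root (adjusted p = 0.00111, limma) and -3.27 ± 0.63 from leaf (adjusted p = 0.00281, limma). MSTRG.43798, with the longest span, was leaf-enriched: it held 278, 227 and 117 fragments in leaf 1, the unnumbered library and leaf 41 (7.83, 7.21 and 3.68 FPKM), 3, 1 and 2 in root 13, 23 and 33, and 1, 5 and 20 in flower 1, 2 and 45.

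**Figure D4:**
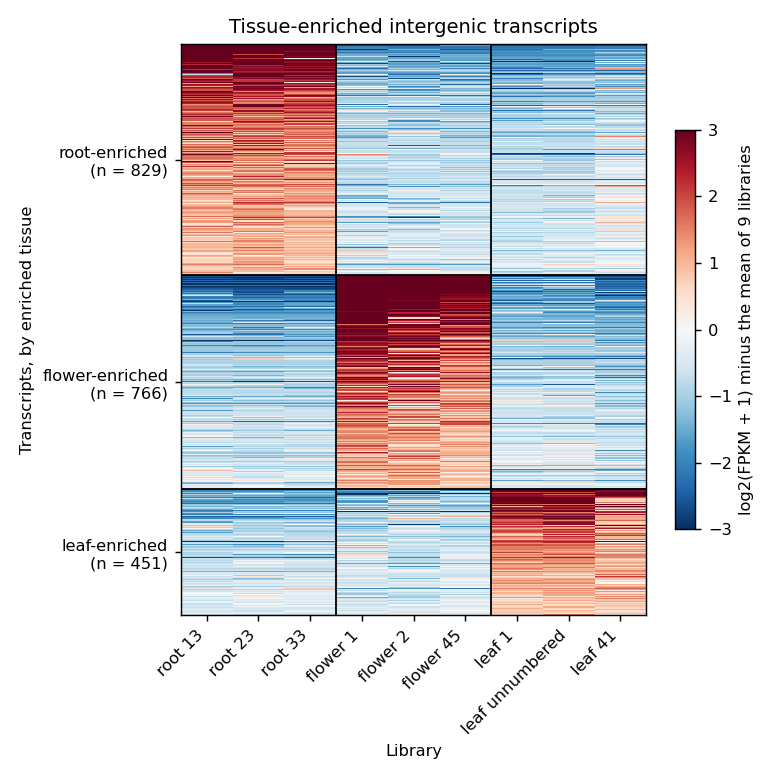
Each row is one of the enriched transcripts (829 in root, 766 in flower, 451 in leaf), each column a library, and the colour is log2(FPKM + 1) minus the mean of the row's 9 libraries, capped at 3 either way. Rows are sorted within a tissue by their margin over the next tissue, and flower 2, flower 45 and leaf 41 are paler than the other libraries of their tissue in part of the rows.

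Tissue specificity was also given as tau, an index over the 3 tissue means that is 0 at equal means and 1 when a single tissue holds all signal. The tested transcripts had a median tau of 0.680 (quartiles 0.490 and 0.873), and 1325 (21.9%) reached 0.9. So did 19.3% of all tested loci, 24.8% of tested reference transcripts alone at their locus and 26.6% of unstranded intergenic ones. The median was 0.706 for tested reference transcripts alone at their locus, 0.733 for unstranded intergenic ones and 0.649 over all tested loci. The mean was highest in root for 2150 transcripts (35.5%), in leaf for 1963 (32.4%) and in flower for 1937 (32.0%), beside 34.9%, 30.8% and 34.3% of all tested loci. No comparison was called for 2566 of the tested (42.4%), beside 43.0% of unstranded intergenic transcripts, 35.9% of all loci and 25.9% of reference transcripts alone at their locus.

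The share of called transcripts was larger at higher levels, as it was over all loci. Among tested transcripts with a mean under 2 FPKM, 44.9% were called in at least one comparison and the median tau was 0.660, beside 48.1% and 0.679 for all loci at that level. From 10 to under 100 FPKM the share was 81.3% and the median tau 0.752, beside 75.1% and 0.626. At 100 FPKM and over it was 82.8%, and the median tau of these 122 transcripts was 0.90, where all loci at that level had 84.5% and 0.755. Of the 122, 53 were flower-enriched (43.4%, beside 27.3% of all loci at that level), 22 root-enriched (18.0%, beside 22.8%) and 6 leaf-enriched (4.92%, beside 7.52%). Strand made little difference, with a median tau of 0.684 on the plus and 0.676 on the minus strand. By span, the median tau was 0.688 under 1000 nt, 0.685 at 1000 to under 5000 nt and 0.605 at 5000 to under 20000 nt. All loci of these spans had 0.728, 0.682 and 0.578. The 146 tested transcripts of 20000 nt or more had 0.781, beside 0.563, and 35 of them (24.0%) were root-enriched, beside 11.3%. In the shorter classes 13.8%, 13.9% and 10.7% were root-enriched, beside 16.2%, 14.8% and 10.2%. These are descriptions of the transcripts, with no test, and transcripts are not replicates.

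A few transcripts held much of the signal. The stranded intergenic transcripts held 11.3% ± 0.550 of the summed FPKM of root libraries, 10.3% ± 0.604 of flower libraries and 8.51% ± 0.241 of leaf libraries (SD, n = 3). Leaf overlapped neither of the others, but the difference of 2.81 points from root and that of 1.76 points from flower each had an exact permutation p of 0.1 (two-sided), which is the lowest possible with 3 libraries a side, and 0.15 when adjusted over 3 comparisons. Root and flower overlapped (p = 0.2, exact permutation test). The 10 highest transcripts of each library held 39.1% to 48.6% of the transcripts' FPKM in root, 22.4% to 22.9% in flower and 24.3% to 33.7% in leaf. Without the 10 highest by the mean of all libraries root libraries kept 6.83%, flower libraries 8.73% and leaf libraries 6.55%, so the difference of flower from root turned from -1.05 to 1.91 points. That of root from leaf shrank from 2.81 to 0.274 points, with overlapping libraries (p = 0.4, exact permutation test).

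The highest transcript of root was MSTRG.10187 (minus strand, 194222 to 194425). It stood at 13588, 36259 and 21563 FPKM in root 13, 23 and 33, at 1095, 733 and 1252 in flower 1, 2 and 45, and at 97.4, 65.5 and 1814 in leaf 1, the unnumbered leaf library and leaf 41. Its span of 204 nt is close to the length correction of 195 to 211 nt fitted in the libraries, so few fragments make a high FPKM there. It is one of the 10 transcripts left out above, so part of the share held in root libraries rests on this short transcript. MSTRG.23291 (plus strand, 93 to 3218) stood at 5064, 10265 and 6743 FPKM in root, at 199, 70.5 and 150 in flower, and at 140, 255 and 2879 in leaf, in the same order. In both, leaf 41 was at least 10 times the level of the other leaf libraries and below every root library. MSTRG.2140 (plus strand, 209975 to 211254) did not share this, with 5390, 4161 and 5207 FPKM in root, 84.8, 33.2 and 179 in flower and 186, 351 and 73.1 in leaf, where leaf 41 was the lowest leaf library. All 3 were root-enriched. The difference from leaf was 6.59 ± 1.10 for MSTRG.10187 (adjusted p = 0.00141, limma), 3.91 ± 0.99 for MSTRG.23291 (adjusted p = 0.0122, limma) and 4.85 ± 0.68 for MSTRG.2140 (adjusted p = 0.000541, limma).

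In flower the highest means were those of MSTRG.24822, MSTRG.53940 and MSTRG.45264. MSTRG.53940 (plus strand, 6903 to 8220) stood at 2783, 2098 and 1778 FPKM in flower 1, 2 and 45, at 7.25, 7.78 and 11.8 in root 13, 23 and 33, and at 43.6, 9.44 and 33.9 in leaf 1, the unnumbered leaf library and leaf 41. MSTRG.45264 (plus strand, 109591 to 109976) was high everywhere and also the highest transcript of leaf. It stood at 7949, 10396 and 5217 FPKM in leaf, at 2370, 1010 and 2585 in flower and at 1029, 746 and 833 in root, in the same order. Leaf lay above both other tissues, with differences of root and of flower from leaf of -3.13 ± 0.51 (adjusted p = 0.00126, limma) and -2.04 ± 0.51 (adjusted p = 0.0107, limma). The difference of flower from root, 1.09 ± 0.51, was not called (adjusted p = 0.107, limma).

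High level without a called tissue difference was seen as well. MSTRG.29051 (minus strand, 264909 to 265506), next in leaf by mean, stood at 678, 1129 and 3229 FPKM in leaf 1, the unnumbered leaf library and leaf 41, at 1285, 706 and 1869 in root 13, 23 and 33 and at 212, 555 and 943 in flower 1, 2 and 45. MSTRG.36189 (plus strand, 126912 to 127870) stood at 713, 1221 and 2001 FPKM in leaf, 825, 395 and 965 in root and 1284, 1939 and 1943 in flower. The tissues overlapped in the first, and in the second flower lay above root and within the range of leaf. None of their 6 differences was called, with limma adjusted p from 0.0585 to 0.874.

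The steadiest transcripts, by the lowest coefficient of variation over the 9 libraries among those with a mean of at least 10 FPKM, were MSTRG.8311 (minus strand, 440079 to 443101) and MSTRG.50704 (plus strand, 123876 to 125447). The first ran from 7.97 to 14.3 FPKM, with a coefficient of variation of 0.208. The second ran from 6.73 FPKM in leaf 41 to 14.9 in the unnumbered leaf library, with a coefficient of variation of 0.212. No difference between tissues was called for either, as the choice by low variation favours. In MSTRG.8311 every root library (10.6 to 14.3 FPKM) and every flower library (8.60 to 11.3) still lay above every leaf library (7.97 to 8.57). In MSTRG.50704 the lowest flower library (12.803 FPKM) lay just above the highest root library (12.783).

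Leaf 41 stood apart from the other leaf libraries. Over the 6050 tested transcripts its Pearson's r of log2(FPKM + 1) was 0.70 with leaf 1 and 0.71 with the unnumbered leaf library, where those reached 0.95 with each other, and 0.48 to 0.58 with the root libraries. These correlations are across transcripts, which are not independent replicates. The 1326 transcripts called higher in root than in flower had a median of 1.71 FPKM in leaf 41, against 0.612 in leaf 1 and 0.740 in the unnumbered leaf library. Of them, 809 (61.0%) reached 1 FPKM in leaf 41, against 571 and 593. The 1149 called higher in flower than in root had a median of 0.917 FPKM in leaf 41, against 1.67 and 1.48. Leaf 41 was thus nearer to root in both sets. Without it, 1246 transcripts (20.6%) were higher in root than in leaf and 1112 (18.4%) lower, in place of 1061 and 815. Of all loci, 21.9% and 19.4% were called without it. The source of the difference was not tested.

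Position gave a further view of the transcripts. Loci are numbered along the assembly, so a reference locus with the number just before or after a transcript's, lying on the side that the number gives and within 10000 nt, was taken as its neighbour. With no scaffold names, some of these pairs may lie on different scaffolds: 1407 pairs, of 1341 transcripts (12.1%), lay on that side and 368 at such a distance on the other side. The neighbour was on the same strand in 731 pairs and on the opposite strand in 676. Among same-strand pairs, the transcript lay upstream of the gene's start in 399 and downstream of its end in 332.

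Correlations with the neighbour were highest for transcripts close to a gene on the same strand. With a gap under 1000 nt, the median Pearson's r of log2(FPKM + 1) over the 9 libraries was 0.68 in 84 same-strand pairs and 0.10 in 106 opposite-strand pairs with both loci tested. At 1000 to under 5000 nt it was 0.25 and 0.10, and at 5000 to 10000 nt 0.15 and 0.12. A correlation of at least 0.9 was reached by 22 of the 84 close same-strand pairs (26.2%) and by 5 of the 106 close opposite-strand pairs (4.72%). Pairs of reference loci with a gap under 1000 nt had a median of 0.59 on the same strand (157 pairs) and -0.01 on opposite strands (462 pairs), so close same-strand pairs of annotated loci had a like median. Transcripts upstream of a same-strand gene had a median of 0.47 over all gaps (191 pairs), those downstream 0.15 (161 pairs). Libraries of a tissue are alike, so each r rests on little more than 3 tissue levels and is given without a p.

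Among the transcripts named above, MSTRG.24822 had a close neighbour on its own strand, MSTRG.24823, which holds the reference transcript CSA034913.1 (plus strand, 141625 to 141858). The gap was 910 nt and r over the 9 libraries was 0.997. The neighbour's level was 11643, 4367 and 7298 FPKM in flower 1, 2 and 45, 22, 21.6 and 63.5 in root 13, 23 and 33, and 8.45, 4.49 and 6.64 in leaf 1, the unnumbered leaf library and leaf 41, near the transcript's own values in flower and root. The span of MSTRG.24823 is only slightly above the length correction of 195 to 211 nt, so few fragments make a high FPKM there. Likeness in level therefore cannot be read from these values. MSTRG.45264 was unlike its neighbour MSTRG.45263 (CSA012021.1, minus strand, 103822 to 106834) in level, at 746 FPKM or more where that locus was at 1.91 or less in every library, though r was 0.90. The remaining named transcripts with a neighbour were MSTRG.42277, with r of 0.80, and MSTRG.8311, with r of 0.06, both beside a locus on the opposite strand.

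Stranded intergenic transcripts with consecutive numbers often had alike profiles too. In 183 same-strand pairs of tested transcripts within 10000 nt the median r was 0.66, and 52 (28.4%) reached 0.9. The median was 0.67 with a gap under 1000 nt (81 pairs), 0.67 at 1000 to under 5000 nt (79 pairs) and 0.60 at 5000 to 10000 nt (23 pairs). In 64 opposite-strand pairs it was 0.29, and 12 (18.8%) reached 0.9; the 28 of these with a gap under 1000 nt had a median of 0.64. Counts over the transcripts therefore include neighbours with alike profiles, which are not independent of each other.

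**Figure D5:**
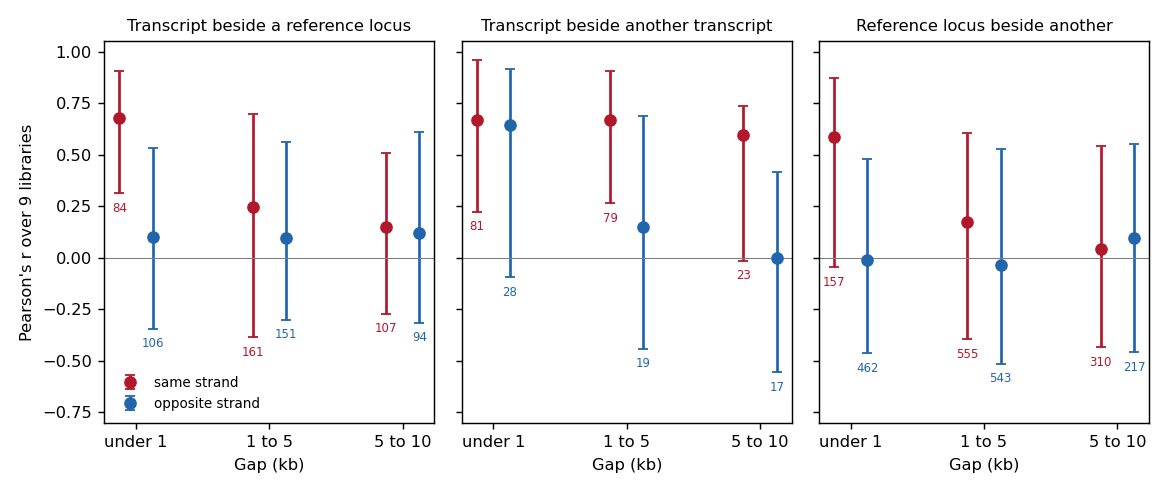
Pearson's r of log2(FPKM + 1) over the 9 libraries for pairs of loci with consecutive numbers, by the gap between them in kb. Points are medians, bars run from the lower to the upper quartile, and the small numbers give the pairs; same-strand pairs (red) under 1 kb apart had medians of 0.68 beside a reference locus, 0.67 between intergenic transcripts and 0.59 between reference loci.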

How the data were processed

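RNA of 3 root, 3 flower and 3 leaf libraries was measured. The values are FPKM (fragments scaled by length and library size), which the authors deposited as 1 table with a locus, strand, start, end and class code per transcript. Per the submitters' processing notes, HISAT2, StringTie and Cuffnorm were used; the sources used here give no versions, settings, strandedness or build. Columns were matched to samples by title; 1 leaf column was matched by tissue alone. All value columns were used, and any pair of libraries had identical values above 0 at no more than 0.0106% of transcripts. The FPKM of a locus's transcripts were summed (61592 loci), and those reaching 1 FPKM in 3 or more libraries (36342) were fitted with limma 3.58.1 (R 4.3.3) to log2(FPKM + 1), letting the variance follow the level and sharing the spread over tissues (6 residual degrees of freedom). Fragment counts of most transcripts are unknown, so no count test was run. The transcripts, lists and tests were chosen with earlier results of these data known. The search for lengths and the correlations of consecutive transcripts were added after the values were seen. The fit was tested on simulated data. Alternatives were other pseudocounts, filters, scalings, array weights, no trend, all transcripts tested, short spans left out, and each library left out. Transcripts were named by a rule: the 2 largest called differences in each direction of a comparison, the 3 highest means and the largest margin in each tissue, the 2 steadiest and the 2 longest spans. The largest differences were taken only where the libraries of the compared tissues did not overlap.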

Additional observations from a re-analysis of the deposited data

How the results depend on the processing

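Over 10 alternatives, 71 of the 90 counts of called or enriched transcripts stayed within 1.5 times the reported count, as did 81 of 81 counts made without 1 library each. The 811 values computed for the 43 called differences of named transcripts kept their direction and their call (limma adjusted p of at most 0.0489). Short spans were left out after the fit, so the values of that alternative repeat the main ones. Many of these transcripts were chosen for large called differences, which favoured this agreement. A pseudocount of 5, which shrinks differences between low values by construction, gave 558 higher and 320 lower in root than leaf, 629 and 317 in flower than leaf, 671 and 596 in flower than root, and 425, 506 and 193 transcripts enriched in root, flower and leaf. A filter of FPKM 5, which tests fewer transcripts, gave 594 and 378, 624 and 389, 672 and 656, and 425, 470 and 178 in the same order. With it 27.2% and 17.3% were called in root against leaf, beside 25.2% and 18.0% of all loci. In flower against leaf 28.6% and 17.8% were called, beside 27.2% and 19.8%. Array weights gave 1422 lower in root than leaf (23.5%, beside 22.8% of all loci). The cause was not tested. The difference in share of summed FPKM between flower and root turned to 1.91 points without the 10 highest transcripts. Under quantile normalization, the median of all loci for flower against leaf was -0.12. No paired analysis was possible because the columns of flower and leaf have only 1 replicate number in common: their titles share the numbers 1 and 2, but the leaf column left over for the title numbered 2 carries a different number, so it was not given that one. Depth limits low values: 3 fragments at 1000 nt are 0.116 to 0.215 FPKM, and more in shorter transcripts.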
